A study of Mus musculus with 16 samples.

Results

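The 82 genes described here carry the symbols of protein components of the cytoplasmic ribosome. One of them, Rps4l, is annotated as a transcribed processed pseudogene and is counted among the 82 throughout. They were chosen by name from the gene tables (symbols of the form Rps or Rpl plus a number, together with Rplp0, Rplp1, Rplp2, Rpsa and Fau, without pseudogene symbols and the Rps6k kinases) and by a mean level of at least 1 TPM (a transcript level corrected for gene length and scaled to the same total in every library) over the 16 libraries. Of 24411 genes in the tables, 85 had such a symbol, and Rpl3l, Rpl10l and Rpl39l fell below 1 TPM. The 82 retained genes comprised 34 of the small subunit and 48 of the large subunit, and all 82 passed the filter on low counts in the fit of 16665 genes.

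RNA was sequenced from celiac ganglia of 2-week-old mice and from tumors of the Th-MYCN model, in which the tyrosine hydroxylase promoter drives a human MYCN transgene in cells of the sympathetic lineage. Ganglia without the transgene carried either intact Runx1t1 (Th-MYCN-/- Runx1t1+/+, 4 libraries) or 1 inactivated copy of this transcriptional co-repressor (Th-MYCN-/- Runx1t1+/-, 3 libraries). Ganglia homozygous for the transgene were likewise Th-MYCN+/+ Runx1t1+/+ (3 libraries) or Th-MYCN+/+ Runx1t1+/- (2 libraries), and the 4 tumors were Th-MYCN+/+ Runx1t1+/+. The heterozygous mice carried an insertional knockout allele. The age of the tumor-bearing mice was not given in the sources used here, so age, tissue and growth as a tumor cannot be told apart in the tumor comparisons. Nothing in the labels ties a library to a separate animal, and p-values therefore measure the spread between these libraries. The human transgene was not measured in the mouse gene table. Runx1t1 RNA stood at 2.78 to 4.41 TPM in Th-MYCN-/- Runx1t1+/+ and 4.36 to 6.28 TPM in Th-MYCN-/- Runx1t1+/- ganglia, and at 7.90 to 70.34 TPM in Th-MYCN+/+ Runx1t1+/+ and 8.83 and 16.86 TPM in Th-MYCN+/+ Runx1t1+/- ganglia, so its level does not check the heterozygous labels. The tumors stood at 29.51 to 55.81 TPM. The Th-MYCN mice were on a 129/SvJ background, while the knockout allele came from a line of another background (CBB6), so the heterozygous mice cannot be taken as 129/SvJ throughout.

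Ribosomal protein mRNAs are among the most abundant messages of any cell. Most of these proteins are needed in equal number per ribosome, and most of the genes are known to be transcribed and translated together. Their mRNAs typically begin with a run of pyrimidines, the terminal oligopyrimidine (TOP) tract, through which mTOR and the RNA-binding protein Larp1 control translation. MYC family proteins are known to raise expression of ribosome components in many cell types, and the ganglia are the tissue in which tumors of this model arise.

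Promoter records from RefSeq (GRCm38.p6, 250 bases before to 50 bases after the annotated start) were found for 61 of the 82 genes. A run of at least 8 C or T bases on the coding strand between 30 bases before and 40 bases after the start occurred in 43 of these 61 genes (70.5%), against 28.7% of 27025 genes with a record. The sequence CCGGAAG, the core bound by ETS family factors, lay on either strand in 25 of 61 (41%), against 9.93% of all genes, and GCCATCTT, which resembles sites of the factor YY1, in 7 of 61 (11.5%), against 3.19%. The E-box CACGTG, which MYC proteins can bind, was found in 6 of 61 (9.84%: Rpl13a, Rpl14, Rpl19, Rpl23, Rpl34 and Rps19), against 8.09% of all genes. Where a gene had several annotated starts, a match at any of them was counted, for members and for all genes alike, and Rps19 had the E-box at 1 of its 3. TATAAA on the coding strand occurred in 9.84% of the members and 9.77% of all genes. These are matches of letters within a fixed window, and the motifs can overlap each other.

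Windows from 60 bases before to 30 bases after the RefSeq start are shown for a stalk protein (Rplp2), a small subunit protein phosphorylated downstream of mTOR (Rps6), 2 of the genes with large increases in tumors (Rpl7a and Rps18) and the paralogs Rpl22 and Rpl22l1, whose levels diverged. Capitals mark runs of at least 8 pyrimidines, and all are written 5′ to 3′ on the coding strand. Rplp2 lies at chr7:141447591-141447680 (plus strand), Rps6 at chr4:86857338-86857427 (minus), Rpl7a at chr2:26910747-26910836 (plus), Rps18 at chr17:33955636-33955725 (minus), Rpl22 at chr4:152325666-152325755 (plus) and Rpl22l1 at chr3:28805448-28805537 (plus).
Rplp2: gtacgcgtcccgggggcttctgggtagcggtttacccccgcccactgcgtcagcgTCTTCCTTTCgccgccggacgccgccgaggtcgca
Rps6: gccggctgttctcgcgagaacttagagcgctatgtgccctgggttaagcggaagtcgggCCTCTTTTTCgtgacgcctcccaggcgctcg
Rpl7a: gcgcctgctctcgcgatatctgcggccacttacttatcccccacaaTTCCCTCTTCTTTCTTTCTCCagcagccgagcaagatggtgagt
Rps18: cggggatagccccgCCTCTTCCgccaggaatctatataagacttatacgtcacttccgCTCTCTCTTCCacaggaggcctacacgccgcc
Rpl22: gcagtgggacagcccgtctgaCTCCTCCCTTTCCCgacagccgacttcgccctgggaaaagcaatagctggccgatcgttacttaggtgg
Rpl22l1: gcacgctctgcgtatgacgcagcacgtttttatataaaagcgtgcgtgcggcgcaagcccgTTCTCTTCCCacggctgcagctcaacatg
The run reached 21 bases in Rpl7a and 10 bases in Rplp2 and Rps6. In Rpl22l1 a run of 10 bases lay just after the start. In Rpl22 the marked run lay upstream, and the longest run between 30 bases before and 40 bases after this annotated start was 5 bases.

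Total expected counts ranged from 10692299 to 14221960 in 6 libraries and from 24873952 to 38618757 in the other 10. The tumors were all among the deeper libraries and both Th-MYCN+/+ Runx1t1+/- ganglia among the shallower ones, so depth and group cannot be told apart in that comparison. One member showed the split directly: Rpl34 had 1.04 to 1.79 times the TPM of its processed pseudogene Rpl34-ps1 in the 6 shallower libraries and 0.366 to 0.518 times in the 10 deeper ones, without overlap. The 2 sets of libraries thus differed in more than their totals, the labels name no batch, and a difference in sequencing or processing between them cannot be told apart from depth. Replicate 2 of the Th-MYCN-/- Runx1t1+/+ ganglia stood apart. Its 9 lymphocyte markers summed to 842 TPM, against 3.89 to 25.27 TPM elsewhere, its 6 myeloid markers to 2042 TPM, against 43.38 to 990 TPM, and its 12 sympathetic neuron markers to 5647 TPM, against 9546 to 15884 TPM in the other libraries of that group. Results whose call or size rested on this library are given with and without it. Sympathetic neuron markers were all detected in every library, summing to 5165 to 17738 TPM in ganglia and 1592 to 2591 TPM in tumors. Markers of other cell types moved with the tumors too. The 8 glia markers summed to 13.75 to 21.38 TPM in tumors and 487 to 2004 TPM in ganglia, the 6 fibroblast markers to 171 to 506 TPM against 888 to 7899 TPM, and the myeloid markers to 311 to 990 TPM against 43.38 to 354 TPM in ganglia other than replicate 2. The ribosomal RNA precursor Rn45s held 8.57 to 12.8% of counts in tumors and 2.15 to 8.80% in ganglia. Genes of small non-coding RNAs (by symbol, such as small nucleolar, Cajal body, Y and microRNA genes) held 9.76 to 11.8% of TPM in tumors and 2.83 to 7.40% in ganglia, without overlap, and are part of the total behind the shares of TPM. The part of these differences in the tumor results was not tested. Tumor replicate 3 also held 6124 TPM of 5 hepatocyte markers, against 2.14 to 67.9 TPM in the other tumors.

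Ribosomal protein mRNAs took up about 13 to 15% of all TPM in tumors and, apart from 1 library, under 10% in ganglia. The 4 tumors stood at 14.1, 13.0, 12.8 and 14.7% (mean 13.7 ± 0.876, SD, n = 4). The Th-MYCN+/+ Runx1t1+/+ ganglia stood at 9.83, 7.55 and 9.32% (8.90 ± 1.197, n = 3) and the Th-MYCN+/+ Runx1t1+/- ganglia at 5.82 and 6.45%. The Th-MYCN-/- Runx1t1+/- ganglia stood at 6.94, 4.47 and 5.998% (5.804 ± 1.24, n = 3), and the Th-MYCN-/- Runx1t1+/+ ganglia at 5.69, 13.95, 7.37 and 6.29%. Replicate 2 of the last group, the library rich in lymphocyte and myeloid markers, thus lay within the range of the tumors, while the other 11 ganglia lay below every tumor. In whole tissue, fewer cells of a type with low ribosome content and more ribosomal protein mRNA per cell cannot be told apart.

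**Figure D1:**
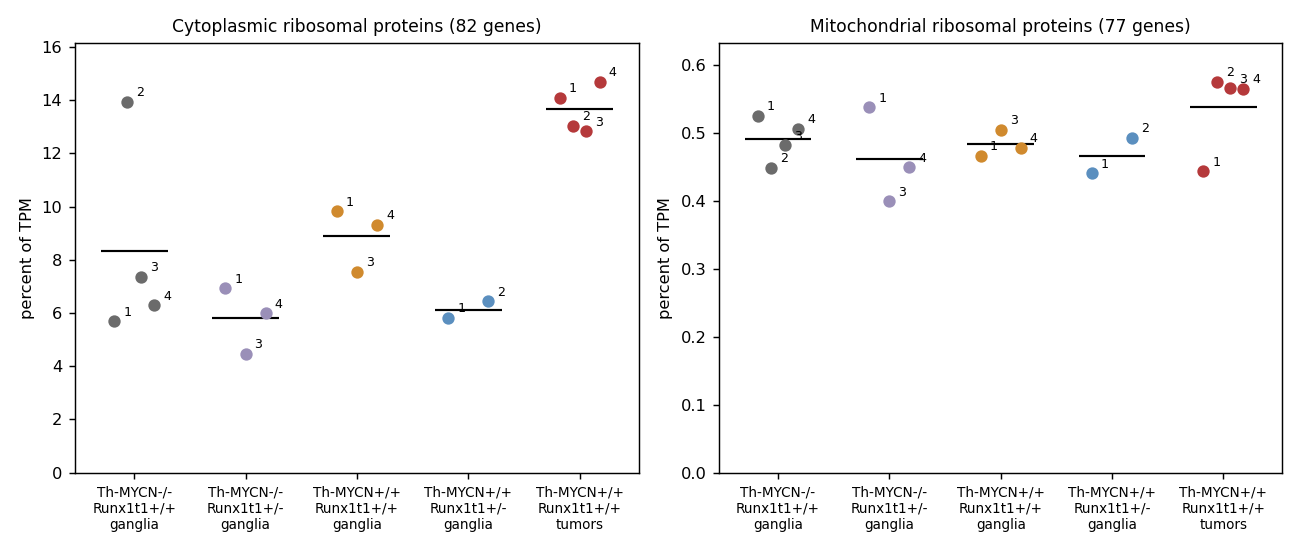
Summed TPM of the 82 cytoplasmic (left) and 77 mitochondrial (right) ribosomal protein genes as percent of all TPM, for each library by group, with replicate numbers beside the points and group means as bars. The tumors lie between 12.8 and 14.7% on the left, with 1 ganglia library at 13.95% among them. On the right all libraries lie between 0.399 and 0.575%.

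The 77 mitochondrial ribosomal protein genes, which serve the separate ribosome of that organelle, did not follow in proportion. They held 0.443 to 0.575% of TPM in tumors and 0.399 to 0.537% in ganglia. Cytoplasmic over mitochondrial ribosomal protein TPM was 22.7 to 31.8 in tumors, 31.1 in the lymphocyte-rich library and 10.8 to 21.1 in the other ganglia. The balance between subunits also differed slightly over the 82 genes: small subunit TPM was 0.713 to 0.719 times large subunit TPM in the tumors. In the 12 ganglia it was 0.602 to 0.708 times, so every tumor lay above every ganglion by a narrow gap. These sums leave out near-identical copies outside the naming rule. Rps27rt, a copy of Rps27, held 2275 TPM in the lymphocyte-rich library and 0.02 to 379 TPM in tumors. Rpl34-ps1 held 1702 to 3009 TPM in tumors and 482 to 1397 TPM in ganglia. The separation is therefore given only for the 82 genes as named.

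Levels differed widely between members. By mean TPM over the 16 libraries, which corrects for length, Rplp2 (3803), Rps23 (3658) and Rplp1 (3129) were highest, and Rpl41 stood at 3087. At the low end were Rpl7l1 (40.3), Rps15a (51.7), Rps27l (52.3), Rps4l (57.6) and Rpl22l1 (117), of which 4 are paralogs of more abundant members. Rps15a had the longest main transcript of the members (5179 bases, median 882). It stood at 49.8 to 238 CPM, so its low TPM does not mean few reads. The genes were spread over 20 chromosomes, with at most 14 on one (chromosome 7), and only 1 member, Rps4l, had a single-exon main transcript.

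The members moved together from library to library. In TMM-normalized CPM (counts scaled to library size by edgeR's trimmed mean of M-values), the median member of each tumor lay 1.61, 1.56, 1.49 and 1.73 on the log2 scale above the mean of Th-MYCN-/- Runx1t1+/+ ganglia 1, 3 and 4, or 2.81- to 3.32-fold. The lymphocyte-rich library lay 1.21 above. Then followed Th-MYCN+/+ Runx1t1+/+ ganglia 1, 4 and 3 at 0.77, 0.56 and 0.29, and the Th-MYCN+/+ Runx1t1+/- ganglia at -0.22 and 0.00. The Th-MYCN-/- Runx1t1+/- ganglia were at 0.04, -0.47 and -0.07, within or below the range of -0.24 to 0.24 of the 3 reference ganglia. Proliferation markers (8 genes) were high in several of the same libraries, at 1512 to 1881 TPM in tumors, 1282, 131 and 671 TPM in Th-MYCN+/+ Runx1t1+/+ ganglia 1, 3 and 4, 353 TPM in the lymphocyte-rich library and 67.7 to 278 TPM in the rest. Their part in the result was not tested.

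**Figure D2:**
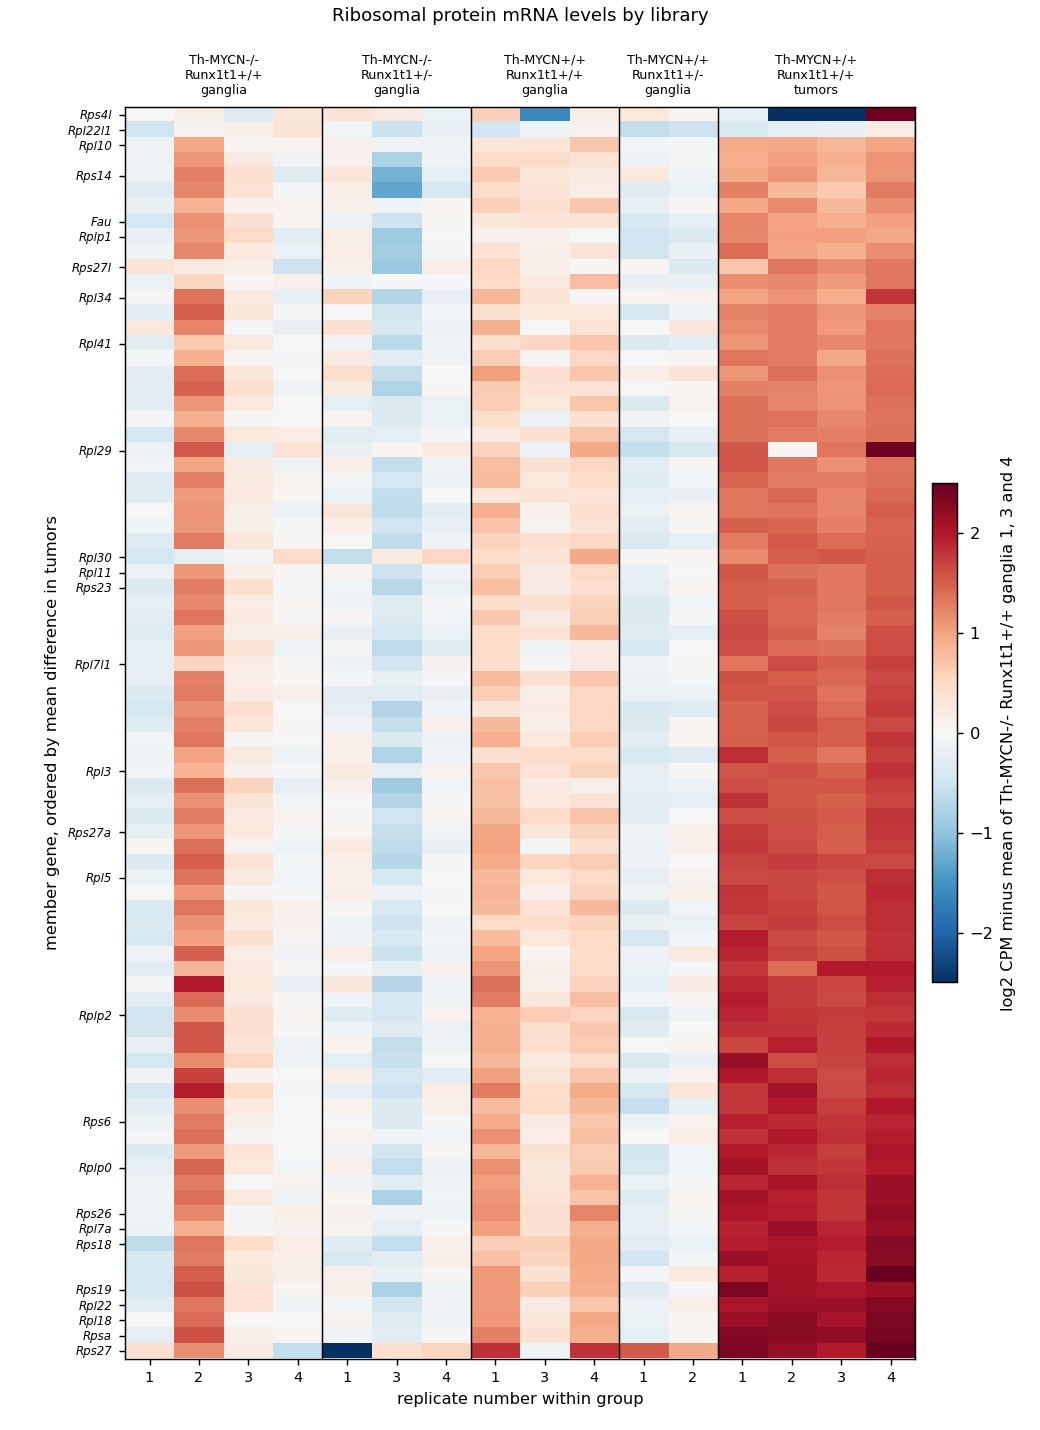
Log2 CPM of each of the 82 genes (one per line) in each of the 16 libraries (columns, replicate numbers below), as the difference from the mean of Th-MYCN-/- Runx1t1+/+ ganglia 1, 3 and 4, with the color scale limited to ±2.5 and a selection of genes labelled. Nearly all genes are raised in the 4 tumors and in replicate 2 of the first group, while Rpl22l1 ranges from 10.2 to 19.3 CPM over all libraries, with the 4 tumors inside the range of the ganglia, and Rps4l scatters.

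As a description across the 16 libraries, which share their tissue and depth classes, 74 of 82 genes had a Pearson correlation over 0.9 with the median of the other members (median r = 0.982). Rps4l (r = -0.253), Rpl22l1 (0.27), Rps27 (0.67) and Rpl30 (0.737) had the lowest values. Once the median of each library was taken out, the median member varied by an SD of 0.0975 on the log2 scale among tumors, 0.0675 among the 2 Th-MYCN+/+ Runx1t1+/- ganglia and 0.169 to 0.174 in the other groups.

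Tumors were compared with ganglia without the transgene to ask what separates the established tumor from normal tissue. Of the 82 genes, 71 rose in tumors and none fell (edgeR quasi-likelihood test, Benjamini-Hochberg adjusted p under 0.05), while 27% of all genes tested rose. The median log2 fold change of the members was 1.14, against -0.11 for all genes. Small subunit genes (30 of 34 called, median 1.203) and large subunit genes (41 of 48, median 1.11) had similar values. For 62 members every tumor lay above every Th-MYCN-/- Runx1t1+/+ ganglion, as for 23.8% of all genes. Without the lymphocyte-rich library, 80 of 82 members rose, with a median of 1.58, against 29.1% of all genes. All 71 earlier calls were among the 80, and the 2 exceptions were Rpl22l1 and Rps4l.

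Compared with Th-MYCN+/+ Runx1t1+/+ ganglia, which share the genotype of the tumors, 65 members rose and none fell, against 14% of all genes called higher, and the median was 1.03. With limma on log2(TPM + 1) 25 members were called, against 8.25% of all genes called higher, and the median was 0.63 (all genes -0.33). For 79 members the tumors lay above all 3 ganglia libraries, as for 18.7% of all genes. The number of calls depended on the ganglia libraries: it was 25 without replicate 3 (7.39% of all genes) and 39 without replicate 4 (7.8% of all genes), although the median stayed at 0.91 and 1.05. Compared with Th-MYCN+/+ Runx1t1+/- ganglia, 76 rose and none fell, against 22% of all genes, with a median of 1.71 and with tumors above both ganglia in 81 members, as for 32.1% of all genes. In the last comparison all ganglia libraries were shallow and all tumors deep. Within the deeper libraries alone, 79 members rose against Th-MYCN-/- Runx1t1+/+ ganglia (median 1.47, 26.4% of all genes called higher) and 74 against Th-MYCN+/+ Runx1t1+/+ ganglia (median 1.13, 20.5% of all genes). Without tumor replicate 3, the library with hepatocyte markers, 68, 57 and 76 members rose in the 3 comparisons, against 25.5, 12.1 and 20.9% of all genes. These comparisons share the tumor libraries.

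**Figure D3:**
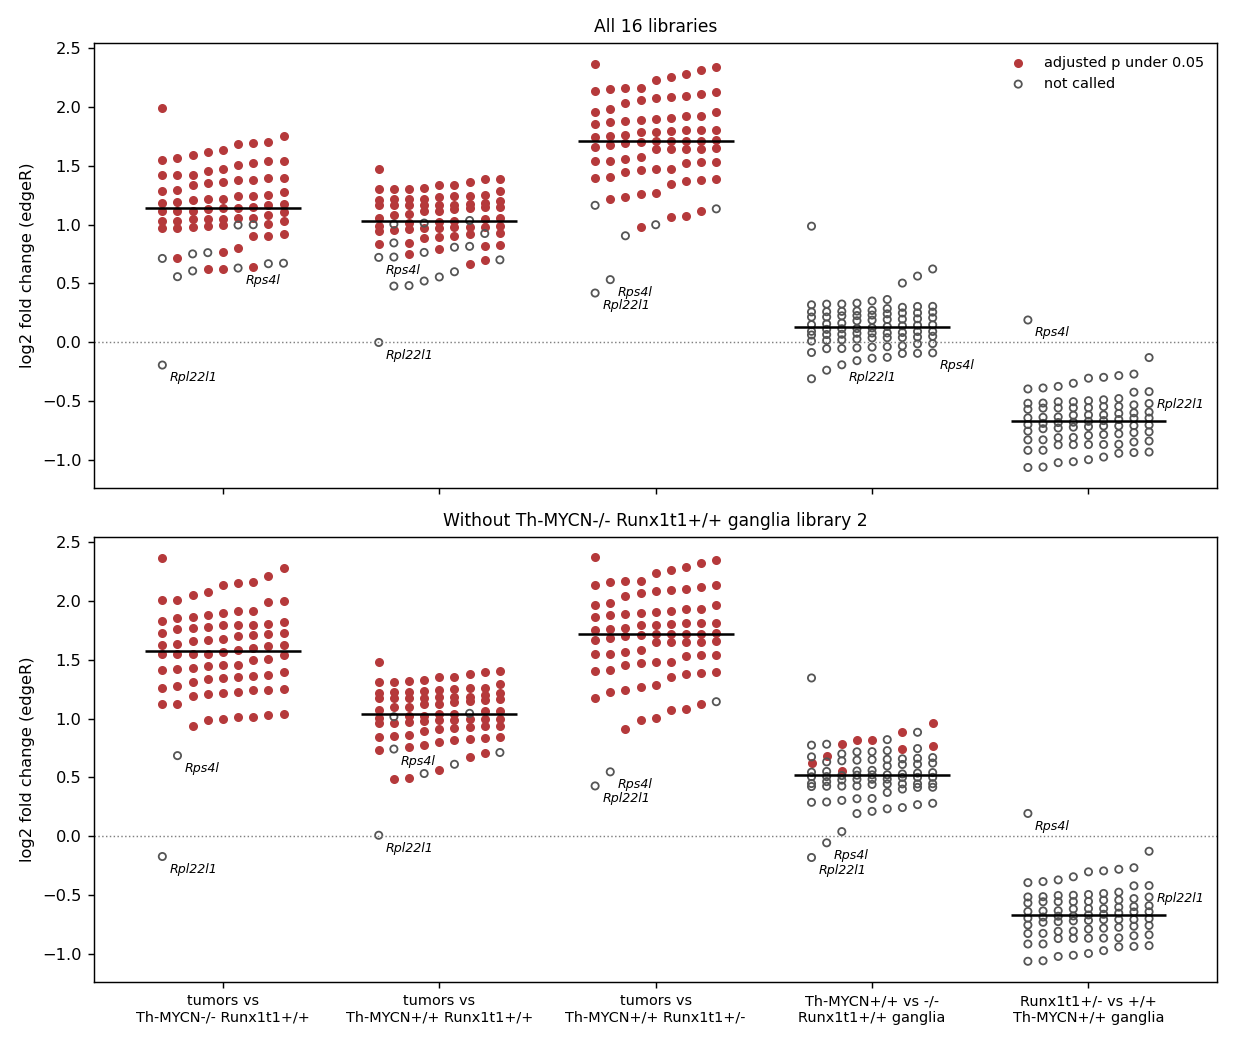
Log2 fold change of the 82 genes (points, ordered by value within each comparison) in 5 comparisons, fitted on all 16 libraries (top) and without Th-MYCN-/- Runx1t1+/+ replicate 2 (bottom). Filled points passed an adjusted p of 0.05 and bars are medians. With all libraries the medians are 1.14, 1.03, 1.71, 0.13 and -0.67, and Rpl22l1 lies lowest in each of the 3 tumor comparisons.

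Rpsa, a small subunit protein also known as the laminin receptor, gave the largest fold change against Th-MYCN+/+ Runx1t1+/- ganglia. It stood at 2452, 2395, 2336 and 2609 CPM in tumors and at 427, 1507, 565 and 526 CPM in Th-MYCN-/- Runx1t1+/+ ganglia. In Th-MYCN+/+ Runx1t1+/+ ganglia it stood at 1210, 654 and 937 CPM, and in Th-MYCN+/+ Runx1t1+/- ganglia at 426 and 522 CPM. The tumors lay above every ganglion. The log2 fold changes of Rpsa in tumors were 1.69 ± 0.34 (SE) against Th-MYCN-/- Runx1t1+/+ (adjusted p = 0.000798), 1.39 ± 0.37 against Th-MYCN+/+ Runx1t1+/+ (0.0108) and 2.37 ± 0.46 against Th-MYCN+/+ Runx1t1+/- (0.000969). Its gene lies at chr9:120127689-120132369 (GRCm38, GENCODE vM21) and has 7 exons.

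Rpl18, a large subunit protein, and Rpl7a behaved likewise. Rpl18 stood at 493, 534, 466 and 577 CPM in tumors and 112, 298, 113 and 112 CPM in Th-MYCN-/- Runx1t1+/+ ganglia, without overlap, a log2 fold change of 1.71 ± 0.30 (adjusted p = 0.000315). Rpl7a rose by 1.75 ± 0.22 in the same comparison (adjusted p = 2.56e-05). Rps28, Rps18 and Rps3a1 of the small subunit rose by 1.64, 1.57 and 1.61 (adjusted p = 0.000292, 0.000738 and 0.00133). Rps19, whose loss of function is a known cause of Diamond-Blackfan anemia, rose by 1.55 ± 0.35 (adjusted p = 0.00184), from 46.9, 191, 81.6 and 65.8 CPM to 324, 268, 260 and 278 CPM.

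Several members rose less. Rpl10 changed by 0.62 ± 0.20 (adjusted p = 0.0178) and Fau, a ribosomal protein made as a fusion with a ubiquitin-like domain, by 0.64 ± 0.25 (adjusted p = 0.0446). In both the lymphocyte-rich library overlapped the tumors: Fau stood at 163, 487, 287 and 228 CPM in ganglia and 510, 439, 413 and 448 CPM in tumors. Rps14 gave 0.56 ± 0.33 (adjusted p = 0.163) with all libraries and 0.99 ± 0.28 (adjusted p = 0.00874) without the lymphocyte-rich library. Against Th-MYCN+/+ Runx1t1+/+ ganglia, Rpl38 gave 0.48 ± 0.21 and did not pass the test (adjusted p = 0.0907), and with limma on log2(TPM + 1) its direction turned, to -0.19.

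The stalk of the large subunit, which recruits the translation factors that hydrolyze GTP, consists of Rplp0 and of dimers of Rplp1 and Rplp2. Rplp0 and Rplp2 rose against Th-MYCN-/- Runx1t1+/+ ganglia by 1.396 ± 0.33 (adjusted p = 0.00248) and 1.38 ± 0.27 (adjusted p = 0.000623). Rplp1 gave 0.67 ± 0.28 (adjusted p = 0.0529) and stood at 250, 622, 400 and 241 CPM in ganglia and 663, 592, 587 and 569 CPM in tumors. Without the lymphocyte-rich library it rose by 1.03 (adjusted p = 0.0017). Against Th-MYCN+/+ Runx1t1+/+ ganglia it rose by 0.98 (adjusted p = 0.0245).

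Rpl5 and Rpl11 bind the small ribosomal RNA of the large subunit and, when free of the ribosome, are known to bind Mdm2, the ubiquitin ligase of p53. Rpl5 rose from 326, 928, 424 and 347 CPM to 1140, 1164, 1109 and 1308 CPM, or by 1.22 ± 0.29 (adjusted p = 0.0027). Rpl11 rose by 1.08 ± 0.24 (adjusted p = 0.00156). Of 7 genes of the p53 surveillance pathway (Trp53, Mdm2, Mdm4 and 4 p53 targets), 3 rose and 2 fell in the same comparison, in which 27% of all genes rose and 30.7% fell.

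Rps6 rose from 247, 682, 309 and 281 CPM to 1064, 1014, 953 and 1040 CPM, or by 1.42 ± 0.28 (adjusted p = 0.000712). Rpl41, the smallest ribosomal protein, rose by 1.03 ± 0.19 (adjusted p = 0.000398) and Rps23 by 0.99 ± 0.29 (adjusted p = 0.00983). Rps27a, which is made as a fusion with ubiquitin, rose by 1.29 ± 0.26 (adjusted p = 0.000851). The scaffold protein Rack1 of the small subunit, listed as Gnb2l1 and outside the naming rule, rose by 1.35 ± 0.34 (adjusted p = 0.00423).

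Some members have a paralog, and the levels of Rpl22 and Rpl22l1 diverged. Rpl22 is the common form in most tissues and Rpl22l1 its minor form. The Rpl22 gene lies at chr4:152325742-152334071 and Rpl22l1 at chr3:28805436-28807424 (GRCm38), each with 4 exons, and their main transcripts were 66.3% identical over an alignment of 487 columns, so few reads can be shared. Rpl22 stood at 433, 470, 462 and 518 CPM in tumors, against 86.9, 265, 135 and 98.7 CPM in Th-MYCN-/- Runx1t1+/+ ganglia and 219, 122 and 169 CPM in Th-MYCN+/+ Runx1t1+/+ ganglia. It rose by 1.69 ± 0.30 (adjusted p = 0.000341) and 1.47 ± 0.33 (adjusted p = 0.00403). Rpl22l1 stood at 11.8, 13.1, 13.7 and 17.5 CPM in tumors and at 10.2 to 19.3 CPM in all 12 ganglia, so the tumors overlapped the ganglia, although they lay above both Th-MYCN+/+ Runx1t1+/- libraries (10.2 and 10.8 CPM).

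The log2 fold change of Rpl22l1 was -0.19 ± 0.21 against Th-MYCN-/- Runx1t1+/+ ganglia (adjusted p = 0.441), 0.00 ± 0.22 against Th-MYCN+/+ Runx1t1+/+ ganglia (0.996) and 0.42 ± 0.26 against Th-MYCN+/+ Runx1t1+/- ganglia (0.207). With limma on log2(TPM + 1), in which the median of all genes moved by -0.43, it was called lower in the first comparison at -0.67 (adjusted p = 0.00734; 43.2% of all genes called lower), and was -0.43 in the second (adjusted p = 0.108) and, with its direction turned, -0.20 in the third (adjusted p = 0.487). The ratio of Rpl22 to Rpl22l1 in TPM was 4.99, 4.92, 4.66 and 4.03 in tumors and 0.684 to 2.44 in ganglia, so each tumor lay above each ganglion. By an exact two-sided permutation test on the log2 ratio, tumors exceeded Th-MYCN-/- Runx1t1+/+ ganglia by 2.09 (n = 4 and 4, p = 0.0286, the smallest this design allows). Adjusted over the 12 paralog comparisons made, p was 0.0857. Against Th-MYCN+/+ Runx1t1+/+ ganglia (n = 4 and 3) the difference was 1.57 at the smallest possible exact p of 0.0571. The pair had been singled out with its fold changes known, and the test is given as a description of the size.

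**Figure D4:**
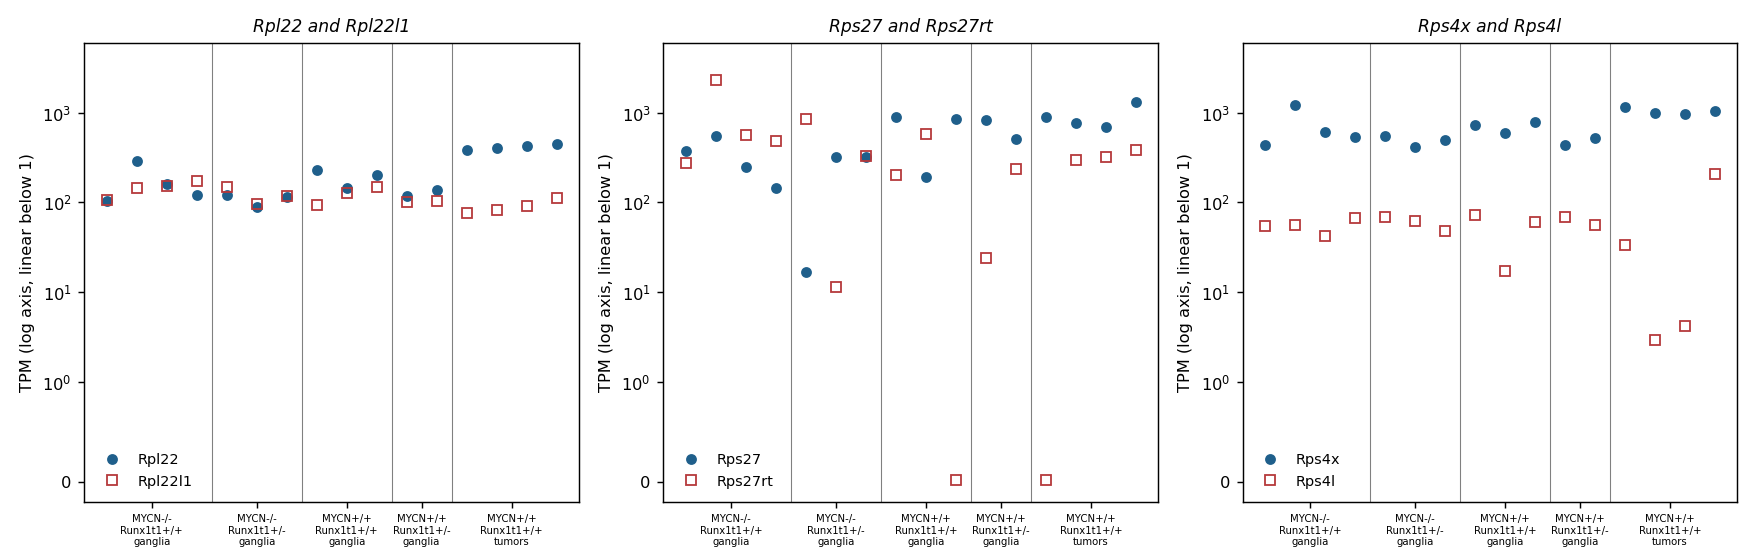
TPM of 3 gene pairs in the 16 libraries by group (vertical axis logarithmic above 1 TPM and linear below). Left, Rpl22 rises above 380 TPM in tumors while Rpl22l1 lies at 76.1 to 112 TPM. Middle, Rps27 and its identical copy Rps27rt trade places between libraries, with Rps27rt at 0.02 TPM in 2 of them. Right, Rps4l scatters from 2.96 to 208 TPM among tumors.

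The ratio was not tested in the other pairs, of which several rose together against Th-MYCN-/- Runx1t1+/+ ganglia. That of Rps4x to Rps4l in TPM was 5.06 to 335 in tumors and 6.36 to 34.3 in ganglia. Rpl7 rose by 1.12 ± 0.25 (adjusted p = 0.00193) and its distant relative Rpl7l1 by 1.38 ± 0.18 (adjusted p = 3.45e-05). Rpl36a rose by 1.25 ± 0.28 (adjusted p = 0.00196), and Rpl36al, a copy outside the naming rule, by 1.06 ± 0.15 (adjusted p = 6.49e-05). Rps27l, a minor form of Rps27 known as a p53 target, rose by 1.06 ± 0.29 (adjusted p = 0.00735), from 5.92, 5.46, 5.26 and 3.28 CPM to 7.57, 11.6, 10.6 and 11.7 CPM. Rpl3 and Rpl39 rose by 1.35 and 0.72 (adjusted p = 9.94e-05 and 0.0445), while their paralogs Rpl3l and Rpl39l, and Rpl10l, were at or near 0.

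Values of members with near-identical copies are uncertain. The transcript of Rps27rt, a single-exon copy at chr9:114982366-114982739, was identical to that of Rps27 over 341 bases, and Rps27 stood at 2.40 CPM in 1 Th-MYCN-/- Runx1t1+/- ganglion and 19.2 and 20.8 CPM in the other two. Rps27 gave 1.99 ± 0.58 in tumors against Th-MYCN-/- Runx1t1+/+ ganglia (adjusted p = 0.00965) and 1.01 ± 0.62 against Th-MYCN+/+ Runx1t1+/+ ganglia (adjusted p = 0.225). The sum of both genes stood at 73.5, 90.0, 82.2 and 141 CPM in tumors and 32.7, 158, 50.7 and 37.0 CPM in Th-MYCN-/- Runx1t1+/+ ganglia. This difference of 0.75 in log2 units did not exceed the spread (exact permutation p = 0.229, n = 4 and 4). Without the lymphocyte-rich library it was 1.25 (exact permutation p = 0.0571, n = 4 and 3, the smallest possible).

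Rpl34, at 99.4% identity with Rpl34-ps1, was not called in any of the 3 tumor comparisons with all libraries. The sum of the 2 genes was 321 to 582 CPM in tumors and 96.4 to 273 CPM in ganglia. Rps4l, annotated as a transcribed processed pseudogene (chr6:148354656-148355598), was less alike, with 77.75% identity to Rps4x over 935 aligned columns. Its level was 14.1, 1.27, 1.71 and 88.0 CPM in tumors and 5.31 to 24.6 CPM in ganglia, and no direction could be read from it. The cause of this scatter was not tested. Rps4x itself, on the X chromosome, rose by 0.99 ± 0.28 (adjusted p = 0.00748).

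The members' fold changes in tumors were set beside other properties. Across the 82 genes, which are not independent replicates, the Spearman correlation of log2 fold change against Th-MYCN-/- Runx1t1+/+ ganglia was 0.16 with transcript length, 0.11 with mean TPM and 0.046 with GC content. In the other tumor comparisons it was 0.23 and 0.16 with length, 0.15 and 0.24 with mean TPM and 0.063 and 0.11 with GC content, against Th-MYCN+/+ Runx1t1+/+ and Runx1t1+/- ganglia in that order. Genes were also split by a pyrimidine run anywhere from 30 bases before to 40 bases after an annotated start. This is not a split by TOP tract, and Rpl22, with its run further upstream, counts as without. Against Th-MYCN-/- Runx1t1+/+ ganglia, the 43 genes with such a run had a median of 1.14 and the 18 without a median of 1.24. The 6 genes with an E-box had a median of 1.05 and the 55 without a median of 1.15. Against Th-MYCN+/+ Runx1t1+/+ ganglia the medians were 1.03 and 1.15 with and without the run, and 1.05 both with and without the E-box. Against Th-MYCN+/+ Runx1t1+/- ganglia they were 1.71 and 1.8 for the run and 1.59 and 1.72 for the E-box.

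The effect of the transgene in ganglia before tumors form was asked by comparing Th-MYCN+/+ with Th-MYCN-/- ganglia, both Runx1t1+/+. With all libraries no member was called by edgeR, where 0.834% of all genes were called higher, and 3 members had an unadjusted p under 0.05, all higher, against 11.7% of all genes in that direction. DESeq2 and limma on log2(TPM + 1) called no member either, against 5.62 and 0.0678% of all genes called higher. The median log2 fold change was 0.13, and 64 of 82 were positive. Without the lymphocyte-rich library, 10 members rose, against 3.46% of all genes, the median was 0.52 and 80 were positive. They included Rpl7, Rpl7a and Rpl18 of the large subunit and Rps13, Rps26 and Rpsa of the small subunit.

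The largest of these was Rps26, which stood at 281, 172 and 300 CPM with the transgene and 117, 124 and 144 CPM in the 3 remaining ganglia without it, without overlap, a log2 fold change of 0.97 ± 0.20 (adjusted p = 0.0323). Rpsa gave 0.88 ± 0.20 (adjusted p = 0.035) and Rpl18 0.82 ± 0.18 (adjusted p = 0.0345). These calls rested on few libraries. Without Th-MYCN+/+ Runx1t1+/+ replicate 1 as well, no member was called (0% of all genes) and the median was 0.45. Within the deeper libraries (2 against 2) no member was called either (0% of all genes), the median was 0.38 and 77 were positive.

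The transgenic ganglia also differed among themselves with their proliferation markers: replicates 1, 4 and 3, in falling order of marker sum, had a ribosomal protein share of 9.83, 9.32 and 7.55%. The sympathetic neuron marker sums of the same libraries were 5165, 6850 and 8577 TPM. Rn45s held 8.80, 4.92 and 4.61% of their counts in that order. In Th-MYCN-/- Runx1t1+/+ ganglia 1, 3 and 4 it held 2.34, 4.32 and 2.94%, and in replicate 2 5.64%. The part of these values in the result was not tested. All 8 proliferation markers rose in this comparison without the lymphocyte-rich library, as did 3.46% of all genes.

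The effect of losing 1 copy of Runx1t1 in transgenic ganglia was asked by comparing Th-MYCN+/+ Runx1t1+/- with Th-MYCN+/+ Runx1t1+/+ ganglia. No member passed the test in edgeR, in which 0.012% of all genes were called, and 26 members had an unadjusted p under 0.05, all lower, as had 7.42% of all genes in that direction. Without the lymphocyte-rich library, which enters the shared estimate of the spread, 61 members had an unadjusted p under 0.05, all lower, against 10% of all genes, and still none was called. The median was -0.67 against -0.09 for all genes, and 81 of 82 members were negative. In 70 members both Runx1t1+/- ganglia lay below all 3 Runx1t1+/+ ganglia, as for 13.9% of all genes. DESeq2 called 2 members lower, Rpl15 and Rpl41, and 0.63% of all genes, and limma called no member and 0% of all genes lower. Rpl41 stood at 192 and 207 CPM in Runx1t1+/- ganglia and 325, 354 and 398 CPM in Runx1t1+/+ ganglia, a log2 fold change of -0.85 ± 0.25 in edgeR (adjusted p = 0.284).

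Rps26, at 110 and 130 CPM against 281, 172 and 300 CPM, gave -1.07 ± 0.36 (adjusted p = 0.314), and Rps13 gave -1.06 ± 0.34 (adjusted p = 0.3). Both Runx1t1+/- libraries were shallow, and 2 of the 3 Runx1t1+/+ libraries were deep. Within the shallow libraries the median was -0.89 and no member was called (0% of all genes lower), but the Runx1t1+/+ side was 1 library, replicate 1, which had the highest ribosomal protein share of its group and was assumed to vary like the other groups. Depth and group overlap here only through this 1 library, so they can be told apart only in part. The proliferation markers summed to 99.2 and 278 TPM, against 131 to 1282 TPM, so the groups overlapped. The sympathetic neuron markers summed to 17738 and 13112 TPM, above the 5165 to 8577 TPM of the Runx1t1+/+ ganglia. Rn45s held 3.06 and 2.79% of counts, below the 8.80, 4.61 and 4.92% of Runx1t1+/+ replicates 1, 3 and 4. The part of these differences in the result was not tested.

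Between ganglia without the transgene, Runx1t1+/- and Runx1t1+/+ libraries showed no called member (0% of all genes called). With all libraries 19 members had an unadjusted p under 0.05, all lower, as had 3.76% of all genes in that direction, and the median was -0.59. Without the lymphocyte-rich library no member had an unadjusted p under 0.05 (0.454% of all genes lower), and the median was -0.16. Between transgenic and transgene-free Runx1t1+/- ganglia no member was called or reached an unadjusted p of 0.05 (0% of all genes called), and the median was 0.03. Its direction turned with a term for depth (-0.24) and with the replicate block (-0.29). The test of whether the transgene's effect differed with Runx1t1 copy number gave no called member and none at an unadjusted p under 0.05 (0% of all genes called). Its median was -0.10 with all libraries and -0.52 without the lymphocyte-rich one, when 24 members, all negative, had an unadjusted p under 0.05 (4.45% of all genes in that direction) and none was called. In these 3 comparisons, in the order given, DESeq2 called no member and 0.03, 0.078 and 0.186% of all genes, and limma no member and 0% of all genes.

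Genes that serve the same pathway were read beside the members. In tumors against Th-MYCN-/- Runx1t1+/+ ganglia, 15 of 17 other TOP mRNAs and translation partners, such as elongation factors, rose (median 1.18), in a comparison in which 27% of all genes rose and 30.7% fell. Npm1 is counted in this list and the next. All 18 genes of RNA polymerase I and nucleolar ribosome assembly rose (median 2.08), as did 12 of 14 chaperones and export factors of ribosomal proteins and subunits (median 1.23). Of 12 regulators of TOP mRNAs, including Larp1 and Mtor, 8 rose (median 0.98), and of the 77 mitochondrial ribosomal proteins 45 rose and 2 fell (median 0.61).

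In tumors against Th-MYCN+/+ Runx1t1+/+ ganglia the corresponding counts were 14 of 17, 18 of 18, 10 of 14, 6 of 12 and 36 of 77, against 14% of all genes. In transgenic against transgene-free Runx1t1+/+ ganglia without the lymphocyte-rich library, 3 of the 18 nucleolar genes, 1 of 17 other TOP mRNAs and none of the mitochondrial ribosomal proteins rose by edgeR, against 3.46% of all genes called higher. Of the mitochondrial ribosomal proteins 5 had an unadjusted p under 0.05 in either direction, against 21.9% of all genes.

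**Figure D5:**
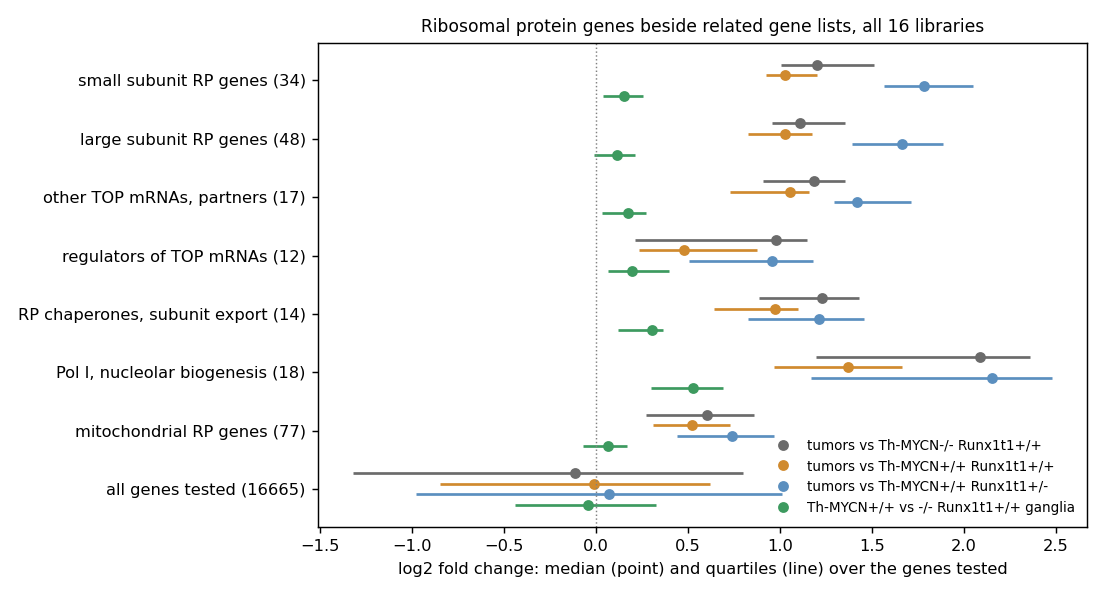
Median (point) and quartiles (line) of log2 fold change over ribosomal protein genes and related gene lists in 4 comparisons, fitted on all 16 libraries, with the number of genes tested in brackets. Against Th-MYCN-/- Runx1t1+/+ ganglia the tumor medians are 1.203 and 1.11 for the 2 subunits, 2.08 for nucleolar genes, 0.61 for mitochondrial ribosomal proteins and -0.11 for all genes.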

How the data were processed

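Per the labels and the study's methods, total RNA of ganglia and tumors was made into SMARTer Stranded Total RNA-seq v2 libraries and sequenced in pairs on an Illumina NovaSeq, although the labels give the molecule as polyA RNA and the cell type of every sample as neuroblastoma. The authors aligned reads to mm10 with STAR, handled alignments with SAMtools and counted genes with RSEM, and deposited expected counts and TPM for 16 libraries. RSEM divides reads shared by near-identical genes. In the column names "Hom" was read as 2 intact Runx1t1 copies.

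Expected counts were rounded and fitted with edgeR 4.0.16 in R 4.3.3 (TMM factors, filterByExpr, quasi-likelihood test, 5 groups in 1 fit, Benjamini-Hochberg adjustment over 16665 genes), with DESeq2 1.42.0 and limma 3.58.1 (log2 of TPM plus 1) as alternatives, and the fit was tested on simulated data. Exact permutation tests used SciPy and transcript alignments Biopython 1.88. The members and gene lists were chosen with earlier results of these data known. Genes were named if they had a paralog, had one of a set of structural or regulatory roles, were among the 5 of highest mean TPM, had the 4 largest called changes or lay furthest from the members' median. Other names were chosen after their values were seen. Other normalizations, filters, a replicate block, a depth term, libraries over or under 20000000 counts and leaving out each library were tried. No column was left unmapped, and no 2 libraries held identical values. Some genes that the rule names are not reported here by name.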

Additional observations from a re-analysis of the deposited data

Results flagged for a closer look

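Dixon's test was applied to 36 measures in the 2 groups of 4 libraries (72 tests), and chance alone gives about 1 in 20. It marked 10 values, 7 of them in replicate 2 of the Th-MYCN-/- Runx1t1+/+ ganglia, the library rich in lymphocyte and myeloid markers. There Rpl10 stood at 414.6 CPM, Rpl18 at 298.2 CPM, Rpl3 at 644.8 CPM, Rpl5 at 928.3 CPM, Rpl7 at 586.1 CPM, Rps6 at 681.6 CPM and Rpsa at 1507 CPM, each far above the other 3 libraries of the group. The share of TPM held by all 82 genes in that library (13.95%) did not pass the same test. Among tumors, replicate 1 had a low mitochondrial ribosomal protein share of 0.443% of TPM, replicate 3 had Rps23 at 959.9 CPM, below the other tumors, and replicate 4 had Rps4l at 87.97 CPM, above them.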

How the results depend on the processing

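Of the values for single genes under the alternatives, 2400 kept direction and call, 44 gained and 98 lost a call, and 18 changed sign; of the counts, medians and shares over the members, 658 stayed close and 19 moved. With limma on log2(TPM + 1), 1 member (Rpl22l1) and 43.2% of all genes were called lower in tumors against Th-MYCN-/- Runx1t1+/+ ganglia, 25 were called higher against Th-MYCN+/+ Runx1t1+/+ ganglia (8.25% of all genes; median 0.63, all genes -0.33), and the median against Th-MYCN+/+ Runx1t1+/- ganglia was 1.17 (all genes -0.40). DESeq2 called 2 members and 0.63% of all genes lower in Th-MYCN+/+ Runx1t1+/- than Runx1t1+/+ ganglia. With a term for depth the medians were 2.10 for tumors against Th-MYCN+/+ Runx1t1+/- ganglia, -0.93 for Th-MYCN+/+ Runx1t1+/- against Runx1t1+/+ ganglia (-0.89 in libraries under 20000000 counts) and -0.24 for transgenic against transgene-free Runx1t1+/- ganglia. Without mitochondrial and ribosomal RNA genes in the total, the members held 15.2% of TPM in tumors, against group means of 8.86, 6.11, 9.52 and 6.41% in Th-MYCN-/- Runx1t1+/+, Th-MYCN-/- Runx1t1+/-, Th-MYCN+/+ Runx1t1+/+ and Th-MYCN+/+ Runx1t1+/- ganglia. The cause of these shifts was not tested.

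Whether replicate numbers pair the libraries could not be settled. Deviations of same-numbered libraries correlated at a median of -0.0161 over 25 pairs, against -0.0183 over 76 pairs of different numbers. Of 16 libraries, 7 correlated best with their own number, a count given without a chance rate. The groups are too small for this check to exclude pairing. For example, deviations of the Th-MYCN+/+ Runx1t1+/- libraries mirror each other (r = -0.492 and 0.492 with Th-MYCN+/+ Runx1t1+/+ replicate 1). With the replicate block the medians of the 3 comparisons above were 1.92, -0.97 and -0.29, and that of the interaction was -0.58. Rpl22l1 against Th-MYCN+/+ Runx1t1+/+ ganglia was 0.013 with the block, and Rps4l was -0.49 against Th-MYCN-/- Runx1t1+/+ and -0.73 against Th-MYCN+/+ Runx1t1+/- ganglia.

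Leaving out 1 library (or, once, 2, chosen after seeing the data) gave 25 to 75 called members for tumors against Th-MYCN+/+ Runx1t1+/+ ganglia (7.39 to 22.8% of all genes), 0 to 10 for Th-MYCN+/+ against Th-MYCN-/- Runx1t1+/+ ganglia (0 to 8.76% of all genes), and a median of 1.57 to 1.83 for tumors against Th-MYCN+/+ Runx1t1+/- ganglia. Rpl22l1 ranged from -0.14 to 0.13 against Th-MYCN+/+ Runx1t1+/+ ganglia. Rps4l ranged from -1.58 (without tumor replicate 4) to 1.03, from -1.49 to 1.18 and from -1.68 to 0.93 in the 3 tumor comparisons. With limma it was -1.49, -1.13 and -1.68, while Rpl22l1 was -0.20 against Th-MYCN+/+ Runx1t1+/- and Rpl38 -0.19 against Th-MYCN+/+ Runx1t1+/+ ganglia. Rps27l and Rpl22l1 were among the members of lowest CPM (2.47 to 19.3 CPM), as was Rpl30 (8.97 to 39.5 CPM). Reads of near-identical copies limit Rps27 and Rpl34.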
